A study of Mus musculus with 2 samples.

Results

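The respiratory chain genes of mouse thymocytes were defined by symbol, as subunits of complexes I to V and the assembly factors whose names share the Ndufa stem, and 107 of the 32285 genes in the count table matched. Of these, 94 are encoded in the nucleus and 13 in mitochondrial DNA (the mt- genes). The cells came from the thymi of Ctrl mice and of T-KO mice, in which a floxed Kidins220 gene is removed in T cells by Cre under the proximal Lck promoter (pLckCre), on a C57BL/6 background. For each genotype 4 thymi were pooled, and no age is given for these pools. Stage 0 iNKT cells (TCRβ+ CD1dt+ CD24+ NK1.1-) and stage 3 iNKT cells (TCRβ+ CD1dt+ NK1.1+ CD24- CD44+) were sorted, 2 times in parallel. The resulting 8 populations carried 1 hashtag antibody each and were run together, which gave 1 library of 5′ transcript ends from droplets and 1 hashtag library.

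The respiratory chain passes electrons from NADH and succinate to oxygen and uses the proton gradient this builds to make ATP. Complex I takes electrons from NADH, complex II (succinate dehydrogenase) from succinate, complex III hands them to cytochrome c, complex IV reduces oxygen, and complex V is the ATP synthase. Complex II is made only from nuclear genes, whereas the other complexes join nuclear subunits with a few made inside the organelle, so the chain is built from transcripts of both genomes. In T cells the chain is known to be built up when a resting cell becomes activated.

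Of the hashtag counts, 99.9% lay on the rows 11 to 18 of the hashtag table. Neither the labels nor the methods say which population each of them marks. The stage and genotype of a row are therefore unassigned, T-KO was not compared with Ctrl, and no test could be run: each row is given as a value of its own. Among 16179 barcodes, 12147 had at least 1000 genes and at most 5% of their UMIs (unique molecular identifiers, each 1 captured transcript) on mt- genes. Of these, 10007 had at least 80% of their hashtag UMIs on 1 row, 4249 on the odd rows (11, 13, 15, 17) and 5758 on the even rows (12, 14, 16, 18). Cells of the odd rows were deeper, with median UMIs per cell of 6500 to 8068 by row, against 3258 to 3804 in the even rows. Levels are given in CPM, the UMIs of a gene per 1000000 gene UMIs summed over the cells of a group.

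The odd rows held a mixture of cells, which was split by the first limit a cell met: at least 2 UMIs of Cd79a (810 cells), 5 of Cst3 (972 cells), 1 of Rag1 (418 cells) or 2 of Ikzf2 (1106 cells), with 943 cells remaining. Some markers that the limits did not use are given for each class. They are part of longer lists, and most are shown without their levels in the other classes. The B cell genes Cd79b and Ms4a1 were at 792 and 574 CPM in the Cd79a class, and the myeloid genes Tyrobp and Lyz2 were at 805 and 250 CPM in the Cst3 class. Dntt and Cd8b1, genes of double-positive thymocytes, were at 779 and 338 CPM in the Rag1 class, although the remaining cells also held them at 620 and 173 CPM. The Ikzf2 class (Ikzf2 encodes Helios) carried the post-selection genes Sox4 and Itm2a at 626 and 412 CPM, and Zbtb16, the gene of the iNKT factor PLZF, at only 11.3 CPM. In the pooled even rows Zbtb16 was at 71.5 CPM and Klrb1c, which encodes NK1.1, at 408 CPM, against 6.30 CPM of Klrb1c in the Ikzf2 class. Of the even row cells, 96.1% met none of the 4 limits.

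In the mouse mitochondrial genome (GRCm38, chromosome M, plus strand) the frame of mt-Atp6 opens inside that of mt-Atp8, and mt-Nd4 opens inside mt-Nd4l. The shared bases are shown because UMIs within each pair cannot be split reliably between its genes, so values are given for pair sums, and counts over mt- genes are given with each pair as 1 unit where that changes them. Capitals mark the start codon of the second frame.
mt-Atp8 and mt-Atp6, chrM:7927-7969, 43 bases: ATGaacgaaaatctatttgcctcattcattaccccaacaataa
mt-Nd4l and mt-Nd4, chrM:10167-10173, 7 bases: ATGctaa

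Nuclear respiratory chain transcripts took a larger part of the odd rows than of the even rows, and mt- transcripts a smaller part. The summed nuclear level was 22464, 24732, 26779 and 27541 CPM in rows 11, 13, 15 and 17. In rows 12, 14, 16 and 18 it was 18895, 18683, 19824 and 19385 CPM. The ranges did not overlap, and the 95% Poisson interval of each row, which covers counting error only, was narrow beside the gap (22370 to 22558 CPM in row 11, the lowest odd row). The mt- sum ran the other way, at 14576, 14694, 13415 and 14198 CPM in the odd rows and at 17585, 18007, 17513 and 17790 CPM in the even rows. The nuclear sum was thus 1.54 to 2.00 times the mt- sum in odd rows and 1.04 to 1.13 times in even rows. These are levels of mixed cells, and the classes below show which cells they came from.

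**Figure D1:**
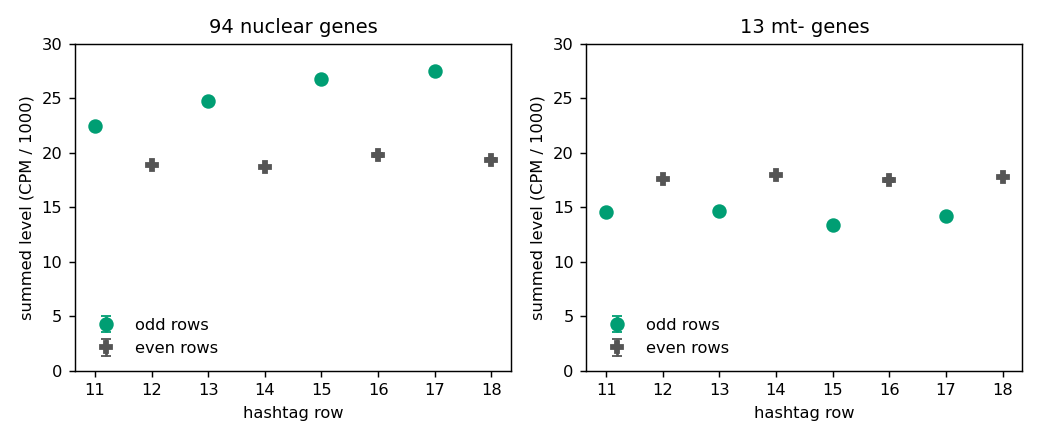
Summed level in CPM divided by 1000 (vertical axes) of the 94 nuclear (left) and 13 mt- (right) respiratory chain genes in each hashtag row (horizontal axes), with 95% Poisson intervals that are mostly smaller than the symbols. The 4 odd rows lie above the 4 even rows for nuclear genes (22464 to 27541 against 18683 to 19824 CPM) and below them for mt- genes.

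Within the odd rows the classes differed more than the rows did. The nuclear sum over the pooled odd rows was 15943 CPM in the Cd79a class, 24567 in the Cst3 class, 26242 in the Ikzf2 class, 27293 in the remaining cells and 31629 in the Rag1 class. Over the rows it ran from 14692 to 19238 CPM in the Cd79a class and from 30253 to 32208 CPM in the Rag1 class, so these 2 ends of the order were apart in every row. The Ikzf2 class (25083 to 27065 CPM) overlapped with the Cst3 class (23658 to 26451 CPM) and with the remaining cells (24713 to 28992 CPM), and these neighbours are not separated by the spread over rows. The mt- sum was lowest in the Rag1 class at 11603 CPM, followed by the Cst3 class at 12698, the remaining cells at 14401, the Ikzf2 class at 16145 and the Cd79a class at 16841 CPM. The nuclear sum over the mt- sum therefore went from 0.947 in the Cd79a class to 1.63 in the Ikzf2 class, 1.90 in the remaining cells, 1.93 in the Cst3 class and 2.73 in the Rag1 class, beside 1.07 in the even rows. This order did not hold among cells of 4000 to 8000 UMIs, where the ratio was 0.776 in the Rag1 class (53 cells), 0.778 in the Cd79a class, 0.948 in the remaining cells, 1.09 in the Ikzf2 class, 1.19 in the even rows and 1.27 in the Cst3 class. Of the 87 nuclear genes that reached 20 CPM in any of these groups, 74 had their highest pooled level in the Rag1 class and 67 their lowest in the Cd79a class. The share of all genes with these orders was not counted. Genes in general were also lower in the Cd79a class: 43.1% of all tested were called lower than in the Ikzf2 class, by limits given below.

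**Figure D2:**
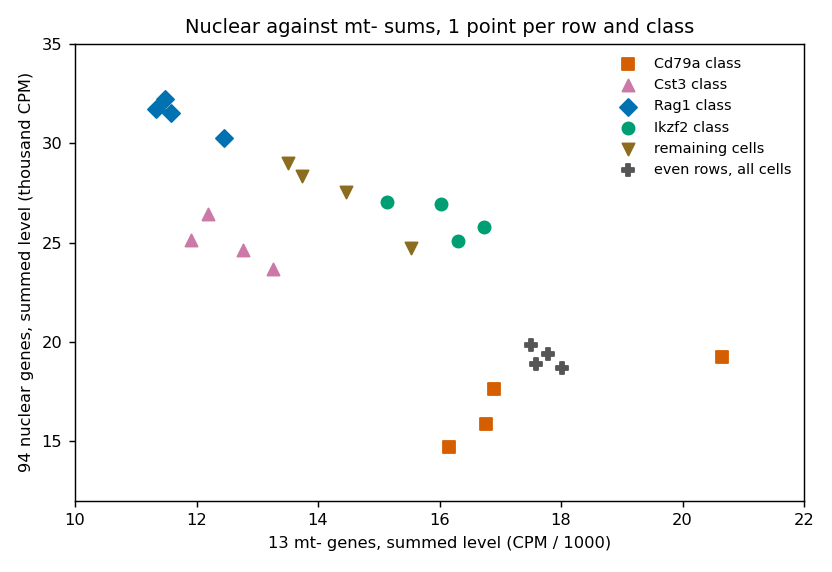
Nuclear (vertical axis) against mt- (horizontal axis) summed levels in CPM divided by 1000, 1 point for each class in each odd row and 1 for each even row. The Rag1 points lie at the upper left (30253 to 32208 nuclear CPM) and the Cd79a points at the bottom (14692 to 19238 nuclear CPM).

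Depth moved with these levels. In 5 of 6 groups (the 5 classes and the even rows) the nuclear sum was higher in cells of at least 12000 UMIs than in cells under 3000 UMIs, the Cd79a class being the exception, and the mt- sum was lower in the deep cells in all 6. In the Ikzf2 class, cells under 3000 UMIs had 16634 nuclear and 28348 mt- CPM, and cells of at least 12000 UMIs had 29742 and 11328 CPM. Median UMIs per cell were 13561 in the Rag1 class, 10487 in the Cst3 class, 6002 in the Cd79a class, 5517 in the Ikzf2 class, 4159 in the remaining cells and 3400 in the even rows, and the limits on UMIs that define the classes are met more easily by deep cells. Row 11 stood apart in the Rag1 class, at a median of 3684 UMIs against 14409 to 15274 in the other odd rows. Cells with a UMI of a cell cycle gene made up 90.7% of the Rag1 class, 64.1% of the Ikzf2 class and 41.6% of the even rows, and the nuclear sum was higher with such a UMI than without in all 21 pairs of row and group that could be compared. This split is also one of depth, since deep cells hold such a UMI more easily: in the Rag1 class the median was 14959 UMIs with it and 2472 without. The part of depth and of the cell cycle in the differences between groups was not tested.

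**Figure D3:**
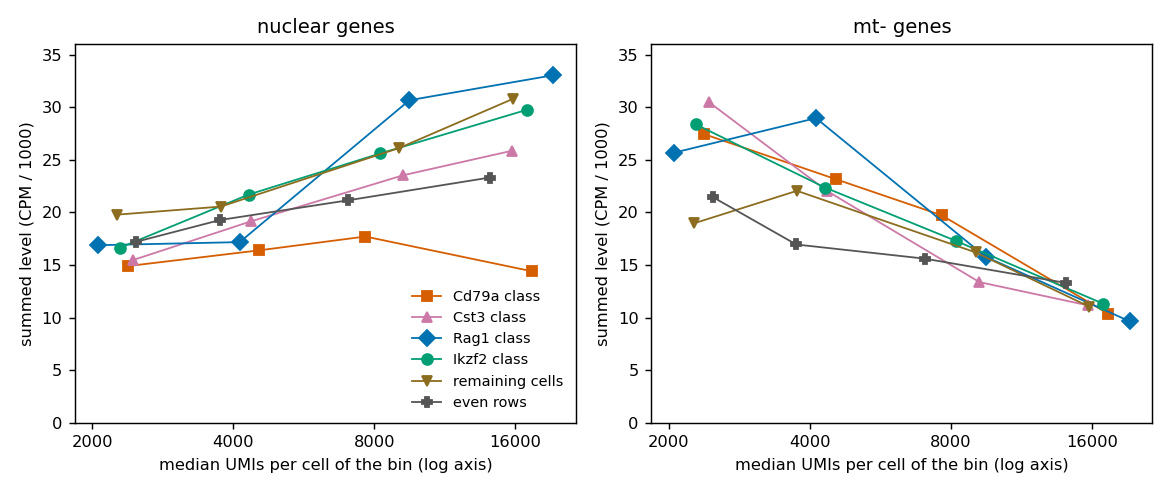
Summed levels in CPM divided by 1000 of nuclear (left) and mt- genes (right) against the median UMIs per cell of 4 depth bins (log axis), for each class of the odd rows and for the even rows. From the shallowest to the deepest bin nuclear levels were higher, except in the Cd79a class (14395 to 17701 CPM), and mt- levels lower, although mt- levels of the Rag1 class and the remaining cells were higher in the second bin than in the first.

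The Ikzf2 class was compared with the cells of the even rows. Here a gene counts as called when its pooled levels differed by at least 1.5-fold on the scale of log2(CPM + 10), it reached 20 CPM on 1 side, and its 4 odd rows did not overlap with the 4 even rows. Nuclear respiratory chain transcripts were higher in the Ikzf2 class by 1.38-fold in sum (log2 ratio 0.46). Of 86 nuclear genes with enough UMIs, 32 were called higher and 0 lower, beside 23.8% of all 7405 genes tested called higher and 12.7% called lower. The median log2 ratio was 0.49 over the nuclear members and 0.20 over all genes. Every complex took part, with log2 ratios of the sums of 0.50 for complex I, 0.56 for complex II, 0.47 for complex III, 0.36 for complex IV and 0.50 for complex V. Among cells of 4000 to 8000 UMIs the log2 ratio of the nuclear sums was 0.22, with 8 genes called higher and 1 lower. Median UMIs in that window were still unequal, at 5421.5 in the Ikzf2 class and 4617.5 in the even rows. Among cells with no cell cycle UMI the log2 ratio was 0.31 with 18 called higher. In both settings the direction of the sum held and its size was smaller. How many of all genes passed the limits in these settings was not counted.

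Complex I held 14 of the 32 calls among its 37 subunits. Ndufc2, an accessory subunit of the membrane arm, was at 256, 264, 283 and 301 CPM in the Ikzf2 class of rows 11, 13, 15 and 17 and at 122, 122, 116 and 115 CPM in rows 12, 14, 16 and 18. All 4 odd rows were above all 4 even rows, and its log2 ratio of 1.14 was the largest among called members. Ndufab1, the mitochondrial acyl carrier protein, was at 298, 282, 342 and 312 against 154, 132, 179 and 148 CPM (log2 ratio 1.00). Ndufb6 and Ndufb2, small subunits of the membrane arm, had log2 ratios of 0.98 and 0.91. Ndufv1, which carries the NADH binding site, was at 138 against 67.9 CPM (log2 ratio 0.93). The assembly factor Ndufaf2 was at 37.3, 39.7, 42.4 and 45.4 against 16.7, 17.4, 14.9 and 13.6 CPM, and was the only one of the 8 assembly factors called. Ndufb11, the complex I member of the highest level in the Ikzf2 class, was at 331 against 271 CPM and was not called.

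In complex II, Sdhb, the iron-sulfur subunit, was called: it stood at 266, 236, 275 and 272 CPM in the Ikzf2 class and at 160, 144, 179 and 152 CPM in the even rows. The flavoprotein subunit Sdha, which holds the succinate site, was at 146 against 120 CPM (log2 ratio 0.26), and the membrane anchors Sdhc and Sdhd were at 73.1 against 51.0 and 126 against 83.2 CPM. None of these 3 was called, although the rows of each did not overlap. In complex III, 5 of 8 genes were called, among them Uqcrq at 352 against 190 CPM. In complex V, 9 of 17 were called, including Atp5b, the catalytic beta subunit (1019 against 560 CPM), and Atp5a1, the alpha subunit (603 against 375 CPM). In complex IV only Cox5a and Cox7a2 were called of 12 tested.

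A few members did not share in this. Uqcrh, the hinge protein of complex III, was at 515, 526, 502 and 553 CPM in the Ikzf2 class and at 579, 596, 573 and 570 CPM in the even rows, so that every odd row was below every even row. Ndufa13 did the same at 315 against 362 CPM, and these were the only 2 of 94 nuclear members with that order. In 74 of the 94 every Ikzf2 row was above every even row. How many of all genes had either order was not counted. By pooled log2 ratio alone, 81 of the 86 members tested were above 0, beside 4778 of all 7405 genes tested. Ndufaf8 was at 48.5 against 62.2 CPM with overlapping rows. Cox8a (974 against 994 CPM) and Atp5e, the epsilon subunit of the ATP synthase (713 against 703 CPM), were at like levels in both groups and overlapped. These 5 genes were picked out after their values were seen.

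**Figure D4:**
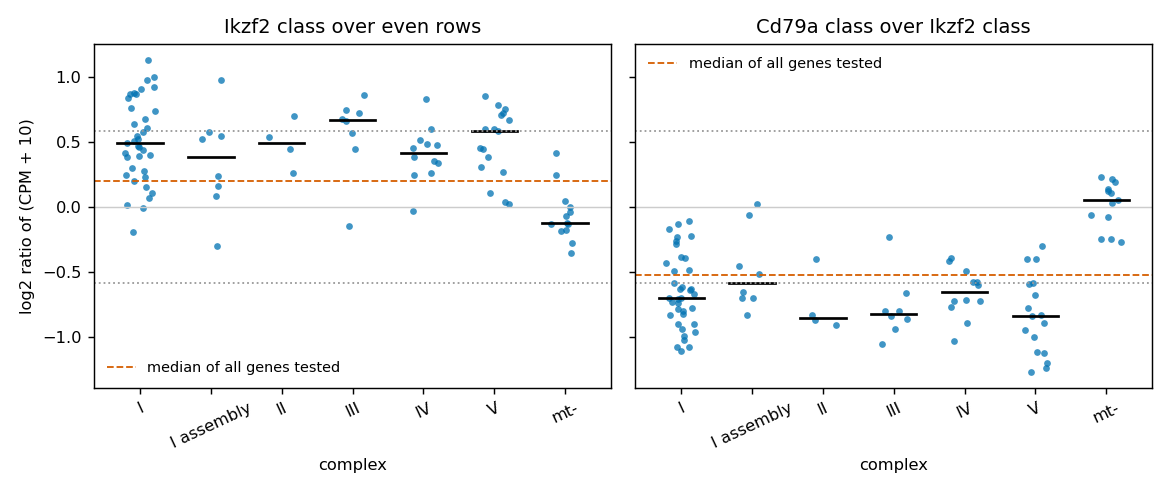
Log2 ratio of CPM + 10 (vertical axes) for each tested member, by complex, for the Ikzf2 class over the even rows (left) and for the Cd79a class over the Ikzf2 class (right). Black bars are medians of the complex, the dashed line is the median of all genes tested (0.20 and -0.52) and dotted lines mark 1.5-fold; nuclear members lie mostly above that line on the left and mostly below it on the right.

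The 13 mt- genes gave no call between the Ikzf2 class and the even rows. Their sum was lower in the Ikzf2 class by 1.10-fold, and the genes were split. With each overlapping pair as 1 unit, 4 of 11 units (mt-Co1, mt-Co2, mt-Co3 and the pair of mt-Atp8 and mt-Atp6) were lower in every odd row than in every even row, while mt-Nd1 and mt-Nd6 were higher in every one. The share of all genes whose rows did not overlap, at any size of difference, was not counted. mt-Co1, the catalytic subunit of complex IV, was at 3299, 3386, 2949 and 3039 CPM against 3842, 3966, 3862 and 3820 CPM. The pair mt-Atp8 and mt-Atp6 summed to 2409 against 2961 CPM. mt-Nd6, the only member on the minus strand of this genome, was at 48.6 against 34.0 CPM. The direction of the mt- sum was not stable: its log2 ratio was -0.14 as reported and turned to 0.35 among cells of 4000 to 8000 UMIs, to 0.17 in cells thinned to 2000 UMIs, and to 0.06 and 0.10 when the limit on mt- UMIs was raised to 10% or removed. Its sign also turned when the mean over single cells was taken. The direction of the mt- sum thus depended on which cells were chosen and on how they were weighted. The nuclear sum stayed higher in each setting tried.

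The Rag1 class, the remaining cells, the Cd79a class and the Cst3 class were each set against the Ikzf2 class within the odd rows. All 4 comparisons share the Ikzf2 class, so they are not independent of each other. A gene was called when it passed the same limits of size and level and moved the same way in every odd row.

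In the Rag1 class the nuclear sum was 1.21-fold above the Ikzf2 class, with log2 ratios of 0.24 to 0.29 over the 4 rows. No nuclear member was called in either direction, beside 4.17% of all genes called higher and 12.8% lower. The median log2 ratio was 0.23 over the 86 members tested and -0.05 over all genes. Of the 86 members 81 were above 0, beside 3159 of all 7044 genes tested. Atp5b was at 1477 against 1019 CPM, Ndufab1 at 447 against 305 CPM and Sdhb at 360 against 257 CPM. The mt- sum was lower by 1.39-fold, and mt-Co1 was the only mt- gene called: 2239, 2129, 2061 and 2063 CPM in the Rag1 class of rows 11, 13, 15 and 17, below all 4 rows of the Ikzf2 class given above. Its share of the mt- sum was 18.2% against 19.8%. These directions turned at matched depth. Among cells of 4000 to 8000 UMIs the log2 ratio of the nuclear sum was -0.16 and that of the mt- sum 0.33, with 7 nuclear members called lower and 1 higher. Among cells without a cell cycle UMI the nuclear ratio was -0.14, with 11 members called lower and 2 higher. Both settings rest on few cells of the Rag1 class, 53 and 39, and in each only 1 row reached the 20 cells needed to enter the calls (row 13 and row 11), so a call there was not checked against a further row. The 39 cells were shallow, with a median of 2472 UMIs. In neither setting was the share of all genes called counted.

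Between the remaining cells and the Ikzf2 class the sums lay close together. The nuclear sum had a log2 ratio of 0.06, with -0.02 to 0.10 over the rows, and no nuclear or mt- member was called (of all genes, 1.76% were called higher and 4.22% lower). The median over 87 nuclear members was 0.05. The nuclear ratio turned to -0.14 among cells of 4000 to 8000 UMIs and to -0.17 without cycling cells.

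The Cd79a class had the lowest nuclear sum of the 5 classes. It was 1.65-fold below that of the Ikzf2 class, with log2 ratios of -0.77 to -0.49 over the rows. Of 86 nuclear members 60 were called lower and 0 higher, beside 43.1% of all genes called lower and 10.5% called higher, and the median log2 ratio was -0.71 over the members and -0.52 over all genes. Genes in general were lower too: centred on the median of all genes, the ratio of the sums was -0.19 and 5 members were called. Complex V was the furthest down in sum (log2 ratio -0.83), followed by complex II (-0.80), complex III (-0.72), complex I (-0.66) and complex IV (-0.63). The 3 largest calls were in complex V. Atp5b was at 353, 409, 486 and 643 CPM in the Cd79a class against 978, 990, 1072 and 1043 CPM in the Ikzf2 class of the same rows. Atp5g3, 1 of 3 genes for the c subunit that forms the rotating ring, was at 497 against 1185 CPM, and Atp5a1 at 257 against 603 CPM. The small subunits Atp5mpl and Atp5md followed, at 114 against 260 and 125 against 283 CPM, with Ndufab1 at 136 against 305 CPM. The mt- genes did not share this. Of 11 units (each overlapping pair as 1), 6 were above the Ikzf2 class, beside 1589 of all 7481 genes tested. None of the mt- genes was called. The log2 ratio of the mt- sum was 0.06, which turned to -0.08 with the limit on mt- UMIs at 10%. The nuclear ratio was -0.46 among cells of 4000 to 8000 UMIs, with 34 genes called, and kept its sign in each setting tried. For this setting and the centred one the share of all genes called was not counted.

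In the Cst3 class the nuclear sum was within 1.07-fold of the Ikzf2 class (log2 ratio -0.10), and of all genes 12.4% were called higher and 17.7% lower. Of the nuclear members only Ndufaf4, a complex I assembly factor, was called, at 27.2, 30.1, 37.8 and 33.0 CPM against 61.0, 52.5, 54.6 and 48.8 CPM. The mt- sum was lower by 1.27-fold, with log2 ratios of -0.40 to -0.30 over the rows, and it was lower in each setting tried. mt-Cytb, the mt- subunit of complex III, was the mt- gene called, at 1887 against 2874 CPM. The nuclear ratio turned to 0.17 when it was centred on the median of all genes (-0.26), and to 0.0055 as a mean over single cells. Among cells of 4000 to 8000 UMIs the log2 ratio was -0.07 for the nuclear sum and -0.30 for the mt- sum, with 6 nuclear members called lower and 2 higher. No share of all genes called was counted in those cells.

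Genes with more than 1 copy in the genome were used unequally. Of the 3 genes for the c subunit, Atp5g3 gave 49.7% of their UMIs in the Ikzf2 class and 49.2% in the Rag1 class, against 43.8% in the even rows and 37.6% in the Cd79a class, where Atp5g2 led with 48.2%. Atp5g1 kept 14.2% to 16.8% throughout. For subunit 4 of complex IV, Cox4i1 gave 99.3% to 100% of the UMIs in each row of each class and Cox4i2 the rest. Cox6a1 and Cox6b1 dominated in the same way, but Cox6b2, known as a testis form, was at 12.5 to 17.9 CPM in the 4 rows of the Ikzf2 class and at 1.03 to 1.82 CPM in the even rows, an order without overlap at a level below the 20 CPM needed for a call. It was also at 11.1 to 26.1 CPM in the remaining cells and at 13.5 to 20.9 CPM in the Cst3 class, but at 0.931 to 2.30 CPM in the Cd79a class. Cox7a1, a muscle form, was at 0.195 to 5.55 CPM in the pooled groups. By row it was at 7.34 CPM in the Rag1 class of row 15 and had no UMI in rows 14 and 18. Cox7b2, Ndufa4l2 and Cox8c had no UMI, and Cox8b and Cox4i2 were below 5 CPM in all groups.

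Cox7a2l was 1 of 3 among 87 nuclear members with their highest pooled level in the Ikzf2 class, beside Ndufaf7 and Ndufa1. It was at 246, 302, 237 and 290 CPM in the Ikzf2 class and between 179 and 225 CPM in every row of the other 4 classes. The even rows were at 204 to 221 CPM, also below each Ikzf2 row. Its pooled level was 276 CPM in the Ikzf2 class and 190 CPM in the Rag1 class, the lowest of the 6 groups. Its relative Cox7a2 followed the bulk of the members, at 426 CPM in the Ikzf2 class, 475 in the Rag1 class and 234 in the even rows. The difference between the Ikzf2 class and the even rows did not reach 1.5-fold (log2 ratio 0.36). Cox7a2l was singled out after its values were seen.

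**Figure D5:**
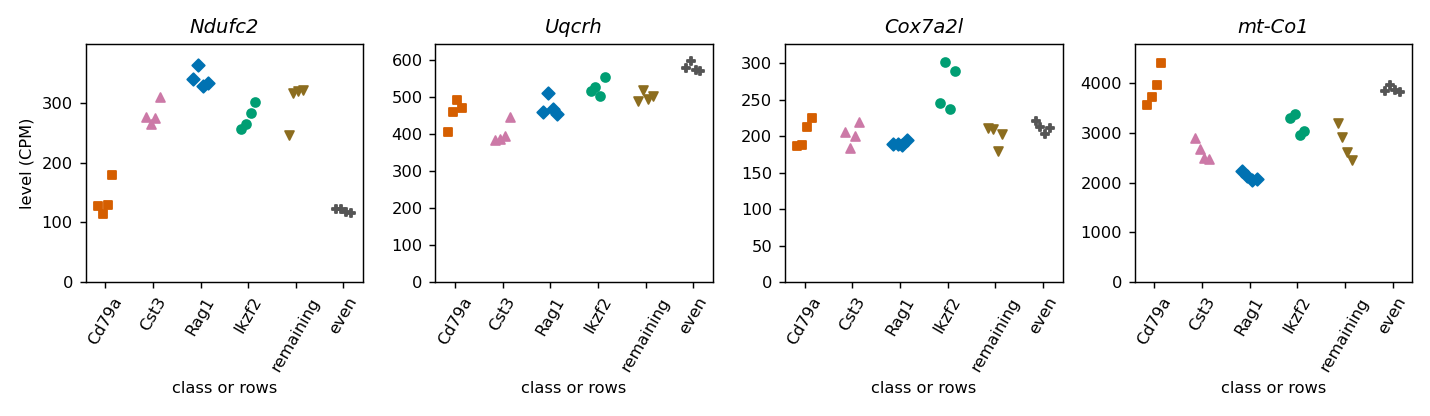
Levels in CPM (vertical axes) of Ndufc2, Uqcrh, Cox7a2l and mt-Co1, with 1 point for each row of each class or of the even rows (horizontal axes). Ndufc2 was lowest in the Cd79a class and the even rows, Uqcrh highest in the even rows, Cox7a2l highest in the Ikzf2 class and mt-Co1 lowest in the Rag1 class.

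Lists of other mitochondrial genes were also set beside the share of all genes for the Ikzf2 class against the even rows. Of the genes for import and carriers 16 of 30 were called higher, of those for pyruvate dehydrogenase and the TCA cycle 8 of 19 (with Me2, malic enzyme 2, called lower), and of the mitochondrial ribosomal proteins 31 of 78, beside the 23.8% of all genes. Cycs, the cytochrome c that runs between complexes III and IV, was at 381 against 187 CPM. Atpif1, the inhibitor of the ATP synthase, was at 331, 328, 355 and 383 CPM in the Ikzf2 class and at 62.6, 56.8, 76.2 and 63.5 CPM in the even rows, a log2 ratio of 2.30. Of the complex IV assembly genes 1 of 15 was called, with a median log2 ratio of 0.07 against 0.20 over all genes. Genes for mitochondrial fusion, fission and removal (2 of 11 called higher), for upkeep and transcription of mt-DNA (2 of 8), for nuclear regulators (2 of 9) and for oxidant defence (4 of 14) were near the share of all genes, and of other chain parts outside the symbol pattern 6 of 19 were called higher. Of 91 genes with symbols of the cytosolic ribosome (Rpl and Rps), a pattern that also takes in S6 kinase genes such as Rps6ka1, 2 were called higher and 9 lower, beside 23.8% and 12.7% of all genes. Among nuclear regulators of the chain, Gabpb1, a subunit of the factor GABP, was at 49.3 against 28.2 CPM, and Nrip1, a corepressor of oxidative genes, at 202 against 46.5 CPM. Nrip1 was called lower in the Rag1 class, at 92.4 CPM. In the Cd79a class 51 of 78 mitochondrial ribosomal protein genes and 12 of 19 TCA cycle genes were called lower, beside 43.1% of all genes.

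Some promoters of the nuclear members held short motifs that the choice by symbol did not use. RefSeq promoters (GRCm38.p6, 250 bases before to 50 after the first listed start) were matched for 77 of 94 members, 2 of them through an older symbol. Both strands were searched. The NRF1 motif GCGCANGCG was in 27.3% of the members' promoters and 6.47% of all 27025 promoters, the YY1 motif AAGATGGCG in 9.09% and 1.49%, and the GABP motif CCGGAAGT in 6.49% and 4% of them. The letters of the NRF1 motif were shortened by 1 base after shares with a longer form had been seen. Any of the 3 was found in 30 of the 77 members and in 2983 of all promoters. Among matched members called higher in the Ikzf2 class 7 of 29 (24.1%) held the NRF1 motif, and among the other tested members 14 of 44 (31.8%) did. The 3 promoters shown were chosen after their values were seen, as that of a gene that was called (Atp5g3) and those of genes that were not (Uqcrh and Cox8a). All 3 hold a motif, whereas most matched members hold none. The called members of largest ratio, Ndufc2, Ndufab1, Ndufaf2 and Ndufb6, held none of the 3 motifs. Capitals mark NRF1 or GABP motifs on either strand, and a match is a description of letters only.
Atp5g3, chr2:73911277-73911576, minus strand, 1 NRF1 motif: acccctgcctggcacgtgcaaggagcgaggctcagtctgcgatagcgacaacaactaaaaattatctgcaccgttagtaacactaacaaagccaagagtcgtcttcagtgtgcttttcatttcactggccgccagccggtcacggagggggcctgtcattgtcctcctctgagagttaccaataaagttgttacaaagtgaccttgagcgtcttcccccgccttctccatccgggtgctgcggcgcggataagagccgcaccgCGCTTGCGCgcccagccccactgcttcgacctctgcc
Uqcrh, chr4:116075021-116075320, minus strand, 1 GABP motif: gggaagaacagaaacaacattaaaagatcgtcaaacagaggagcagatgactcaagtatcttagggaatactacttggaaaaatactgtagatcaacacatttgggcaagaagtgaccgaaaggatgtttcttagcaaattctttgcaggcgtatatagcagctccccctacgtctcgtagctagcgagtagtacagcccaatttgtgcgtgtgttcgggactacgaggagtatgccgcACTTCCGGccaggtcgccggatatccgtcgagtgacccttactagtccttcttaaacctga
Cox8a, chr19:7217567-7217866, minus strand, 2 GABP motifs: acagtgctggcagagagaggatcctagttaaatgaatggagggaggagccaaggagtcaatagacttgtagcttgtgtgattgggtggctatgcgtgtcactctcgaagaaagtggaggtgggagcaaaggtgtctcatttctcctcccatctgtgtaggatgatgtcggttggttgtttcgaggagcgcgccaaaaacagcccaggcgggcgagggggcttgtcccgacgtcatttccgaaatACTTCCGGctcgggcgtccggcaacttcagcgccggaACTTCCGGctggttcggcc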

How the data were processed

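Transcripts and hashtags of 8 pooled populations were counted by the authors with Cell Ranger 6.0.0 on its prebuilt mm10 reference. Its annotation release, not given in the sources used here, sets the symbols. The deposited counts are raw UMIs of each gene and hashtag in each barcode. UMIs tag molecules, so levels were not divided by gene length. Cells, rows and classes were chosen by the limits given in the report, and doublets between rows fell to the limit of 80% on hashtags, with at least 10 hashtag UMIs; no doublet caller was run. UMIs were summed over cells and scaled to CPM, with exact Poisson intervals from scipy 1.17.1 (Python 3.11.15, numpy 2.4.6, pandas 2.3.3).

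Differences are log2 ratios, with a pseudocount of 10 CPM for single genes and none for sums. Class comparisons used rows with at least 20 cells in both classes. Rows were not replicates of a known group, so no test was run. The comparison procedure was tested on simulated data. Named genes were the mt- genes, complex II, subunits with paralogues, up to 6 called members of largest ratio in each direction, the highest member of a complex and members below 5 CPM, and genes of other mitochondrial lists where called. The members and lists were chosen with earlier results of these data known.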

Additional observations from a re-analysis of the deposited data

Results flagged for a closer look

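Over 54 sets of 4 rows, a single row stood apart from the other 3 by Dixon's criterion at the 95% level in 4, where chance alone gives about 1 in 20. The mt- sum in the Cd79a class of row 17 was 20654 CPM against 16154 to 16891 CPM in the other odd rows. This is the smallest of the 4 Cd79a groups, with 58 cells. The complex I assembly factors summed to 305.7 CPM in the remaining cells of row 13, against 294 to 296 CPM in the other odd rows. Among the even rows, row 16 stood above the others in complex II (436 against 402 to 407 CPM) and in complex III (1749 against 1663 to 1671 CPM).

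Respiratory chain transcripts were also counted in the 717 barcodes with a row and enough genes that were left out for more than 5% of UMIs on mt- genes. Their nuclear sum was 9813 CPM and their mt- sum 70965 CPM, at a median of 2501 UMIs per barcode. They were spread unevenly: 86 beside 418 kept cells in the Rag1 class, 196 beside 1106 in the Ikzf2 class and 173 beside 943 in the remaining cells. The Cd79a class had 73 beside 810, the Cst3 class 7 beside 972 and the even rows 182 beside 5758.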

How the results depend on the processing

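Over 24 alternatives, 540 values of 26 results were recomputed: 385 stayed within the spread over rows, or within 1.5 times for a count, 136 moved beyond it and 19 turned in direction. The higher nuclear sum of the Ikzf2 class over the even rows and the lower nuclear sum of the Cd79a class kept their direction in each alternative, as did the lower mt- sum of the Cst3 class. The values that moved follow; those of a class are against the Ikzf2 class, counts are of nuclear members, and the cause was not tested except where a value is shifted or cells are left out by construction. In the list, thinned cells have 2000 UMIs each, the other denominator leaves out mt- genes and those with ribosomal protein symbols (Rpl and Rps), and centring is on the median of all genes. The alternatives of matched UMIs and of centring were chosen after seeing the data. The share of all genes called was not counted in any alternative, so the counts of members there have no such share beside them. For the Rag1 class matched UMIs left 53 cells and leaving out cycling cells left 39, with 1 row each of at least 20 cells. For the Cd79a class the nuclear over mt- ratio (0.947 as reported) moved to 0.868 up to 10% mt- UMIs, 0.832 without a limit on mt- UMIs, 1.04 up to 3% mt- UMIs, 0.801 as cell means, 0.814 thinned, 0.797 without cycling cells and 0.778 at 4000 to 8000 UMIs. For the Cst3 class the nuclear over mt- ratio (1.93 as reported) moved to 1.72 up to 4000 genes, 1.60 as cell means, 1.63 thinned, 1.69 without cycling cells and 1.27 at 4000 to 8000 UMIs. For the Rag1 class the nuclear over mt- ratio (2.73 as reported) moved to 2.05 up to 10% mt- UMIs, 2.00 without a limit on mt- UMIs, 3.13 up to 3% mt- UMIs, 1.72 up to 4000 genes, 2.93 at a 95% hashtag share, 1.77 as cell means, 1.83 thinned, 1.16 without cycling cells and 0.776 at 4000 to 8000 UMIs. For the Ikzf2 class the nuclear over mt- ratio (1.63 as reported) moved to 1.31 up to 10% mt- UMIs, 1.27 without a limit on mt- UMIs, 1.89 up to 3% mt- UMIs, 1.24 up to 4000 genes, 1.15 as cell means, 1.20 thinned, 1.16 without cycling cells, 1.81 with the Ikzf2 limit first and 1.09 at 4000 to 8000 UMIs. For the remaining cells the nuclear over mt- ratio (1.90 as reported) moved to 1.46 up to 10% mt- UMIs, 1.37 without a limit on mt- UMIs, 2.15 up to 3% mt- UMIs, 1.53 up to 4000 genes, 1.35 as cell means, 1.46 thinned, 1.12 without cycling cells and 0.948 at 4000 to 8000 UMIs. For the even rows the nuclear over mt- ratio (1.07 as reported) moved to 1.02 up to 10% mt- UMIs, 1.02 without a limit on mt- UMIs, 1.16 up to 3% mt- UMIs, 1.00 from 500 genes, 0.971 as cell means and 1.19 at 4000 to 8000 UMIs. For Ikzf2 over even rows the nuclear sum (log2 ratio, 0.46 as reported) moved to 0.35 up to 4000 genes, 0.39 with the other denominator, 0.34 as cell means, 0.31 thinned, 0.31 without cycling cells, 0.26 centred and 0.22 at 4000 to 8000 UMIs. For Ikzf2 over even rows the mt- sum (log2 ratio, -0.14 as reported) moved to -0.23 up to 3% mt- UMIs, -0.21 with the other denominator, -0.25 with the Ikzf2 limit first and -0.34 centred, and turned to 0.060 up to 10% mt- UMIs, 0.097 without a limit on mt- UMIs, 0.13 up to 4000 genes, 0.094 as cell means, 0.17 thinned, 0.17 without cycling cells and 0.35 at 4000 to 8000 UMIs. For Ikzf2 over even rows the count called higher (32 as reported) moved to 21 up to 4000 genes, 18 as cell means, 17 thinned, 18 without cycling cells, 14 centred and 8 at 4000 to 8000 UMIs. For Ikzf2 over even rows the count called lower (0 as reported) moved to 1 at 4000 to 8000 UMIs. For the Rag1 class the nuclear sum (log2 ratio, 0.27 as reported) moved to 0.29 at a 95% hashtag share, 0.30 with the other denominator, 0.22 with the Ikzf2 limit first and 0.32 centred, and turned to -0.14 without cycling cells and -0.16 at 4000 to 8000 UMIs. For the Rag1 class the mt- sum (log2 ratio, -0.48 as reported) moved to -0.38 up to 10% mt- UMIs, -0.39 without a limit on mt- UMIs, -0.22 up to 4000 genes, -0.62 at a 95% hashtag share, -0.35 as cell means, -0.32 thinned, -0.13 without cycling cells and -0.35 with the Ikzf2 limit first, and turned to 0.33 at 4000 to 8000 UMIs. For the Rag1 class the count called higher (0 as reported) moved to 1 up to 3% mt- UMIs, 3 at a 95% hashtag share, 1 with the other denominator, 3 as cell means, 3 thinned, 2 without cycling cells, 1 with a pseudocount of 1 CPM, 2 centred and 1 at 4000 to 8000 UMIs. For the Rag1 class the count called lower (0 as reported) moved to 1 up to 4000 genes, 1 as cell means, 1 thinned, 11 without cycling cells and 7 at 4000 to 8000 UMIs. For the remaining cells the nuclear sum (log2 ratio, 0.057 as reported) turned to -0.17 without cycling cells and -0.14 at 4000 to 8000 UMIs. For the remaining cells the mt- sum (log2 ratio, -0.16 as reported) moved to -0.069 without a limit on mt- UMIs and -0.059 with the Ikzf2 limit first, and turned to 0.064 at 4000 to 8000 UMIs. For the remaining cells the count called higher (0 as reported) moved to 1 at 4000 to 8000 UMIs. For the remaining cells the count called lower (0 as reported) moved to 4 without cycling cells and 1 at 4000 to 8000 UMIs. For the Cd79a class the nuclear sum (log2 ratio, -0.72 as reported) moved to -0.55 at a 95% hashtag share, -0.50 as cell means, -0.52 thinned, -0.19 centred and -0.46 at 4000 to 8000 UMIs. For the Cd79a class the mt- sum (log2 ratio, 0.061 as reported) moved to 0.59 centred, and turned to -0.083 up to 10% mt- UMIs, -0.064 without a limit on mt- UMIs, -0.19 up to 4000 genes and -0.20 without cycling cells. For the Cd79a class the count called lower (60 as reported) moved to 37 as cell means, 35 thinned, 5 centred and 34 at 4000 to 8000 UMIs. For the Cst3 class the nuclear sum (log2 ratio, -0.095 as reported) moved to -0.040 up to 10% mt- UMIs, -0.036 without a limit on mt- UMIs, -0.050 up to 4000 genes, -0.15 with the other denominator, -0.016 thinned, -0.045 without cycling cells and -0.18 with the Ikzf2 limit first, and turned to 0.0055 as cell means and 0.17 centred. For the Cst3 class the mt- sum (log2 ratio, -0.35 as reported) moved to -0.59 up to 10% mt- UMIs, -0.62 without a limit on mt- UMIs, -0.24 up to 3% mt- UMIs, -0.52 up to 4000 genes, -0.40 with the other denominator, -0.48 as cell means, -0.45 thinned, -0.58 without cycling cells, -0.24 with the Ikzf2 limit first, -0.086 centred and -0.30 at 4000 to 8000 UMIs. For the Cst3 class the count called higher (0 as reported) moved to 1 up to 4000 genes, 1 thinned, 1 without cycling cells, 2 centred and 2 at 4000 to 8000 UMIs. For the Cst3 class the count called lower (1 as reported) moved to 2 up to 4000 genes, 2 as cell means, 3 thinned, 3 without cycling cells, 2 with the Ikzf2 limit first, 0 centred and 6 at 4000 to 8000 UMIs. Leaving out 1 row at a time gave these ranges where a value moved. Members called higher numbered 0 to 1 (Rag1). Members called lower numbered 0 to 1 (Cst3). No paired analysis was possible because the hashtag rows carry no replicate number and are mapped to no group. Depth limits the genes near 20 CPM, where the pseudocount makes falls below 1.5-fold of larger true falls, and the mt- sums, which the limit on mt- UMIs truncates. Free RNA was not removed, and doublets within a row cannot be seen by hashtags.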
